A study of Rattus norvegicus with 6 samples.

Results

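Immediate early and growth response genes were followed as a group of 10 listed rat genes: Fos, Fosb, Jun, Junb, Jund, Egr1, Ier2, Ier3, Dusp1 and Myc. The members were taken from the list by name, and a probe was assigned to a gene when it carried a RefSeq transcript of that gene. This gave 14 probes for 9 of the 10 genes, among 11748 genes tested in all. No probe carried a RefSeq transcript of Fosb, and Fosb was not analysed here. Where a gene had several probes, it was represented by the brightest one.

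Male Sprague-Dawley rats of the Crl:CD(SD) stock, 5 weeks old when purchased, were the source of the renal cortex RNA. One group of 3 rats received the vehicle, corn oil, and the other group of 3 rats received 2-amino-4-nitrophenol, an aromatic nitro amine used as a dye intermediate, at 750 mg/kg/day. Both groups were dosed for 4 weeks, and each rat was hybridised to 1 single-colour Agilent oligonucleotide array. The question here is how these genes stood in the cortex of dosed rats relative to vehicle rats. Each measurement is thus one taken after repeated dosing, and the labels give no interval between the last dose and tissue collection.

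Immediate early genes are transcribed within minutes of a growth factor, stress or injury signal without new protein synthesis, and their transcripts are short-lived. FOS and JUN proteins pair to form the transcription factor AP-1, EGR1 is a zinc finger factor, DUSP1 is a phosphatase that switches off MAP kinases, and MYC drives growth and ribosome production. In kidney these genes are known for their fast and transient induction after acute tubular injury.

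A cyclic AMP response element (CRE), the site bound by CREB and ATF family factors, is a known control element of several of these genes. RefSeq promoter windows (GRCr8 build, 250 bases before to 50 bases after the start site) were matched for 6 members, namely Fosb, Dusp1, Jund, Egr1, Junb and Ier2, and not for Fos, Jun, Ier3 and Myc. The full CRE, spelled TGACGTCA and the same on both strands, occurred in 3 of these 6 windows, against 1.83% of 33469 windows of the same length. The windows of these 3 members are shown because they share this element, which is in capitals.
Dusp1, chr10:17184603-17184902, + strand: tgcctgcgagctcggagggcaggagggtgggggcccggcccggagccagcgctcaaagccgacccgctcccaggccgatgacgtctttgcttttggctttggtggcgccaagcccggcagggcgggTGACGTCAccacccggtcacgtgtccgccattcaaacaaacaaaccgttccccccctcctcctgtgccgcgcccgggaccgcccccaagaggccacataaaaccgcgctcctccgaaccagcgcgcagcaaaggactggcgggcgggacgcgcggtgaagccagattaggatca
Jund, chr16:18769722-18770021, - strand: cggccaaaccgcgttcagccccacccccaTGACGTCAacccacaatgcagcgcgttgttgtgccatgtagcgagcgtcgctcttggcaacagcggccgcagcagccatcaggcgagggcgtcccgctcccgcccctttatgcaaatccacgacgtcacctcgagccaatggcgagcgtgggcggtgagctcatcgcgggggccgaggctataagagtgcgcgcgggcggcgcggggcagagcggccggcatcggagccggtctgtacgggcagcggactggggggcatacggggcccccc
Ier2, chr19:40399123-40399422, + strand: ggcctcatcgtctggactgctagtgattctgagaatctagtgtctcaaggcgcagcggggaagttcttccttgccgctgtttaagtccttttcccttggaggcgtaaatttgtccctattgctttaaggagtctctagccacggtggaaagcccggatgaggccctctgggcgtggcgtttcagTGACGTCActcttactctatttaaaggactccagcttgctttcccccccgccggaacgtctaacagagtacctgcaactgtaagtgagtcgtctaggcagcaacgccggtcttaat
Relative to the start site, the element spanned bases -124 to -117 in Dusp1, -221 to -214 in Jund and -66 to -59 in Ier2. The CArG box, bound by serum response factor, was found in the Egr1 window only among the 6 (1.64% of all windows). The EGR motif GCGNGGGCG, searched on both strands, was present 3 times in the Jund window (4.98% of all windows hold it). The E-box CACGTG, a motif bound by MYC and related factors, occurred in the Dusp1 window (6.42% of all windows). The AP-1 motif TGANTCA occurred in 0 of the 6 (7.33% of all windows). The motif TATAAA on either strand was in the windows of Fosb and Junb (14.2% of all windows). None of these matches overlapped another. A match is a description of the letters, not of binding.

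Between 61.6% and 70.9% of non-control probes were well above background on each array, and no probe was saturated. Corn oil replicates 1 and 3 lay in the first row of the slide that held all 3 treated arrays in its second row, and corn oil replicate 2 lay alone on another slide, so that row and treatment cannot be told apart on the shared slide. All 7 proximal tubule markers (such as Lrp2, Slc34a1 and Slc5a2) were well above background on all 6 arrays. Among inner medulla markers, Slc14a2 and Aqp4 were above background on all 6 arrays too, and Fabp7 on 0. The erythroid markers Hbb, Ahsp and Alas2 (3 of 5 listed were tested) were higher on every treated array than on any corn oil array, as were 20.1% of all genes. None had a limma adjusted p under 0.05 (0.116 to 0.179). Their summed level, in multiples of the array 75th percentile, was 139 to 200.2 in corn oil and 257 to 382 in treated rats, and was mostly Hbb. The part of these markers in the member values was not tested. In whole tissue, fewer cells of a type and less RNA per cell cannot be told apart.

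After 4 weeks of dosing, none of the 9 measured immediate early and growth response genes passed the test in the treated renal cortex. Their log2 changes, treated minus corn oil, ran from -0.46 for Egr1 to 0.25 for Myc, with a median of 0.13 against 0.04 over all genes tested. The median absolute log2 change of the 9 was 0.13, and that of all genes was 0.17. In limma 0 of 9 members had an adjusted p under 0.05, where 3 of 11748 genes did (0.0255%; 2 higher, 0.017%, and 1 lower, 0.00851%). With spike-in scaling these calls were 1 higher and 8 lower. Before adjustment 0 of 9 had a p under 0.05, against 21.6% of all genes. The adjusted p of the members lay between 0.276 and 0.927. Of the 9, 7 had a positive and 2 a negative log2 change, where 57.4% of all genes were positive and 42.6% negative, but under scaling on spike-in controls all 9 were negative. After quantile normalization, and without corn oil replicate 1, 5 were positive and 4 negative. Without treated replicate 2 the split was 6 to 3, and with scaling on the array median 8 to 1. The remaining alternatives left it at 7 to 2. Spike-in scaling shifts the log2 change of every gene, here and below, by the same amount. It moved the median of all genes from 0.04 to -0.28, and the members then had a median of -0.19.

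**Figure D1:**
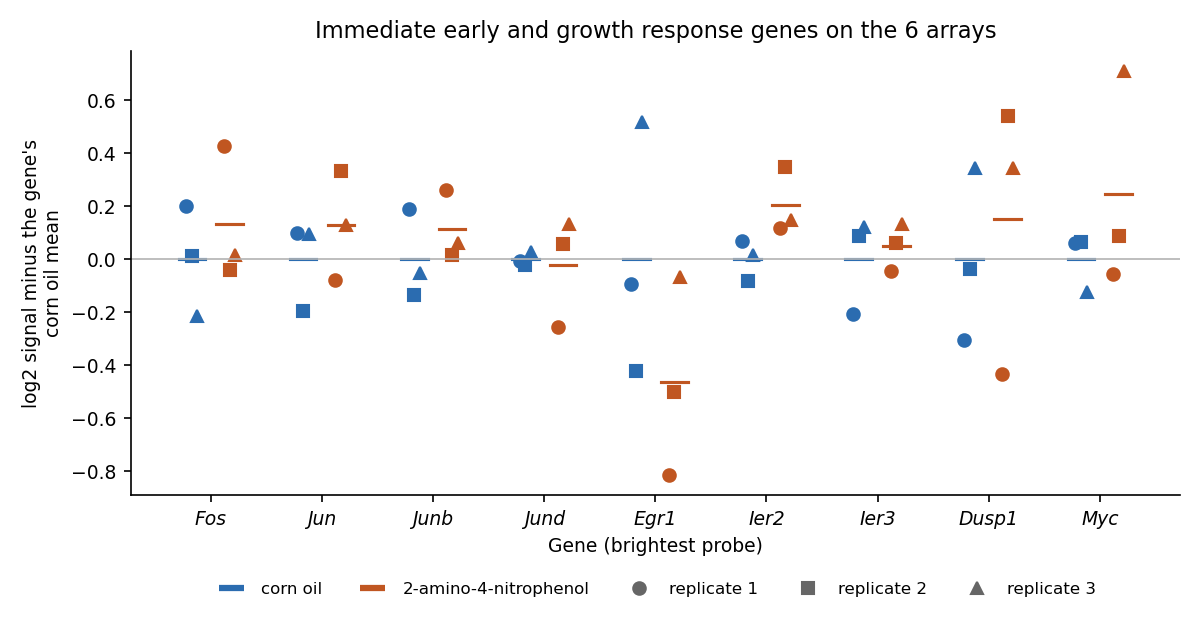
Log2 signal of the brightest probe of each gene on each array, minus the mean of that gene over the 3 corn oil arrays (vertical axis), for the 9 measured genes. Colours are the groups, symbols the replicates and short bars the group means; the groups overlap for every gene but Ier2, and the highest point is Myc on treated replicate 3.

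Values below are log2 signals relative to the 75th percentile of the array, so 0 is the level of that percentile and -1 a signal lower by 1 on the log2 scale. Levels of different genes are not compared, because each probe has its own response.

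FOS is the founding member of the FOS family and an AP-1 subunit. Fos was at -4.13, -4.31 and -4.54 on corn oil replicates 1, 2 and 3, and at -3.90, -4.37 and -4.31 on treated replicates 1, 2 and 3. The groups overlapped, treated replicate 1 being the highest array and corn oil replicate 3 the lowest. The log2 change was 0.13 ± 0.17 (SE, n = 3 per group; 95% interval -0.27 to 0.54; limma adjusted p = 0.668). The Fos signal was dim: its processed intensity was 27.3 to 48.8 on the 6 arrays, where the lowest probe well above background stood at 10.8 to 16.9. The other Fos probe, dimmer still and not well above background on 1 treated array, had a log2 change of 0.34 ± 0.14 (95% interval 0.00055 to 0.68; unadjusted p = 0.0497, limma adjusted p = 0.235 over probes). After normexp background correction the brightest probe had 0.24 (unadjusted p = 0.0258, limma adjusted p = 0.169), and without treated replicate 1 it had -0.01.

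Of the JUN family, which supplies the partner of FOS in AP-1, 3 genes were measured. Jun, the family's founding member, was at 2.90, 2.61 and 2.90 on the corn oil arrays and at 2.72, 3.13 and 2.93 on treated replicates 1, 2 and 3. The treated array with the lowest level lay inside the corn oil range and the other treated arrays above it. The log2 change of Jun was 0.13 ± 0.14 (95% interval -0.21 to 0.47; limma adjusted p = 0.622). It was 0.03 without treated replicate 2 or without corn oil replicate 2, and 0.23 without treated replicate 1.

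Junb, which encodes a JUN protein with weaker activating ability, was at 3.19, 2.87 and 2.95 on the corn oil arrays and at 3.27, 3.02 and 3.07 on the treated arrays. Replicate 1 was the highest array in both groups, and the groups overlapped. Junb had a log2 change of 0.11 ± 0.12 (95% interval -0.18 to 0.40; limma adjusted p = 0.611). It was 0.21 without corn oil replicate 1, 0.05 without corn oil replicate 2 and 0.04 without treated replicate 1.

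Jund, the JUN gene known for steady expression in resting cells, was at 4.30, 4.28 and 4.33 on the corn oil arrays and at 4.04, 4.36 and 4.43 on treated replicates 1, 2 and 3. The corn oil arrays were close together (SD 0.03), whereas the treated arrays fell on both sides of them (SD 0.21). The log2 change of Jund was -0.02 ± 0.12 (0.984-fold, 95% interval 0.807 to 1.20; limma adjusted p = 0.927), and it was 0.09 without treated replicate 1. Among the 5 members whose 95% interval lay within 0.5 of zero on the log2 scale were the 3 JUN genes, Ier2 and Ier3; 50.8% of all genes had such an interval.

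The probes of the JUN genes did not all point the same way. The second probe of Jun had a log2 change of -0.10 ± 0.12 and that of Junb -0.08 ± 0.12, opposite in sign to the brightest probes. For Jund the other probes had -0.08 ± 0.11 and -0.43 ± 0.31. The Jund probe with the larger difference had a processed intensity of 429 and 310 on treated replicates 1 and 2, against 784 on treated replicate 3 and 750.4 to 868 on the corn oil arrays. None of these differences between the groups passed (unadjusted p from 0.215 to 0.539 in the limma fit over probes).

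**Figure D2:**
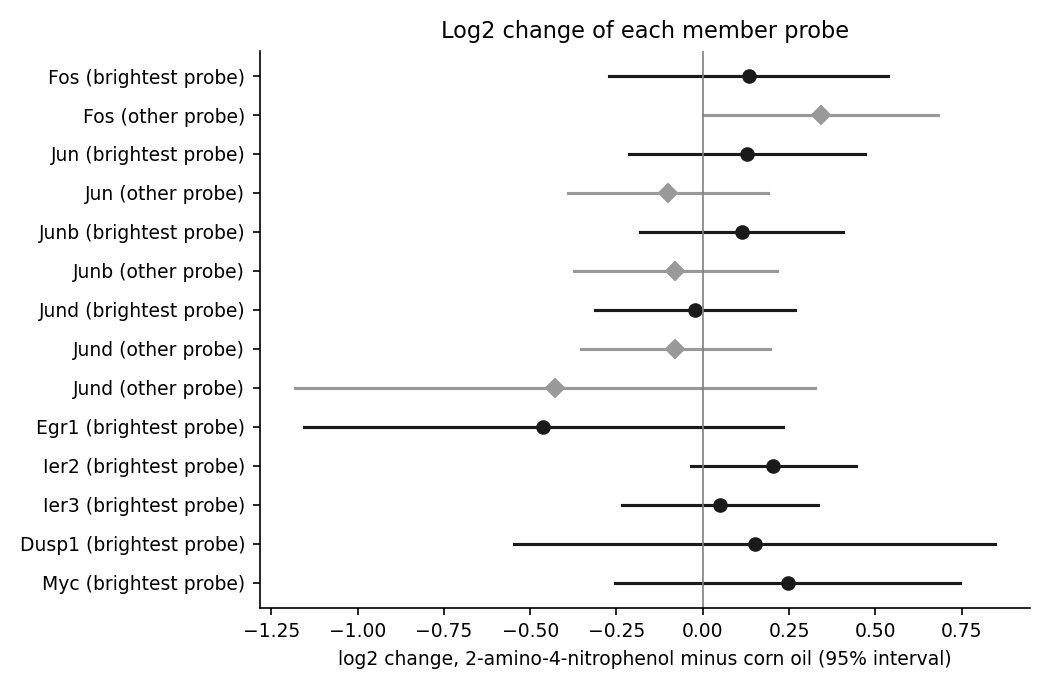
Log2 change (treated minus corn oil, horizontal axis) of each of the 14 member probes with its 95% interval, from a limma fit over all named probes. Black circles are the brightest probe of a gene and grey diamonds the others; every interval of a brightest probe spans 0, and the interval of the other Fos probe, from 0.00055 to 0.68, does not.

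EGR1, a zinc finger factor induced through MAP kinases and serum response factor, had the largest difference between group means among the 9. Egr1 was at -3.35, -3.67 and -2.74 on corn oil replicates 1, 2 and 3, and at -4.07, -3.76 and -3.32 on treated replicates 1, 2 and 3. The treated arrays were lower on average, but treated replicate 3 was above corn oil replicates 1 and 2. Egr1 had a log2 change of -0.46 ± 0.29 (0.726-fold, 95% interval 0.446 to 1.18; limma adjusted p = 0.382). Its probe too was dim, with a processed intensity of 40.8 to 119.1. The log2 change was -0.20 without corn oil replicate 3, the highest array, and -0.67 without corn oil replicate 2, which is also what blocking on the slide gives. After normexp correction with an offset of 50 it was 0.0040.

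The EGR1 corepressors Nab1 and Nab2, which bind EGR proteins and limit their activity, were both tested and neither passed. Nab2, itself induced by EGR1, had a log2 change of 0.27 ± 0.14 (-0.22 from its other probe, -0.05 with spike-in scaling) and Nab1 of 0.05 ± 0.16 (-0.27 with spike-in scaling).

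Ier2 and Ier3 are small immediate early response genes; IER2 is a nuclear protein and IER3 acts in cell survival signalling. Ier2 was at 2.51, 2.36 and 2.45 on the corn oil arrays and at 2.56, 2.79 and 2.59 on treated replicates 1, 2 and 3. All 3 treated arrays were above all 3 corn oil arrays, which makes Ier2 the 1 of 9 members without overlap; 20.1% of all genes had treated arrays entirely above the corn oil arrays, 10.1% entirely below and 30.2% either. The log2 change of Ier2 was 0.20 ± 0.10 (1.15-fold, 95% interval 0.979 to 1.36), the lowest p of the 9, and it did not pass (unadjusted p = 0.0775, limma adjusted p = 0.276). It was 0.10 after quantile normalization and -0.12 with spike-in scaling.

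Ier3 was at 1.13, 1.42 and 1.46 on the corn oil arrays and at 1.29, 1.40 and 1.47 on the treated arrays. The ranges of the groups nearly coincided, with corn oil replicate 1 the lowest array. Its log2 change was 0.05 ± 0.12 (limma adjusted p = 0.828). It was -0.05 without corn oil replicate 1 and 0.11 without corn oil replicate 3.

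Dusp1 encodes the phosphatase MKP-1, which dephosphorylates p38, JNK and ERK kinases. Dusp1 was at -2.97, -2.70 and -2.33 on the corn oil arrays and at -3.10, -2.13 and -2.32 on treated replicates 1, 2 and 3. Both groups were widely spread, and the treated group held both the lowest and the highest array. The log2 change was 0.15 ± 0.29 (1.11-fold, 95% interval 0.681 to 1.81; limma adjusted p = 0.786). Without treated replicate 1 it was 0.44, without treated replicate 2 it was -0.04 and without corn oil replicate 1 it was -0.0028. Fibroblast and smooth muscle markers (all 7 tested) had a median relative to the corn oil mean of -0.42, 0.51 and 0.18 on treated replicates 1, 2 and 3. That is the order of Dusp1, and also of Jun and Ier2, on the treated arrays, and not of the other members. It is not particular to these markers. The median over all genes had the same order (0.0176, 0.0862 and 0.0451), as did that of the proximal tubule markers (-0.0251, 0.0576 and -0.0239). On corn oil replicates 1, 2 and 3 the marker medians were 0.11, -0.08 and 0.04. Dusp1 stood at -0.31, -0.04 and 0.34 from its corn oil mean, so that replicate 1 was highest for the markers and lowest for Dusp1. Jun stood at 0.098, -0.194 and 0.096 and Ier2 at 0.067, -0.083 and 0.016, which is the order of the markers. It is also that of the medians over all genes (0.0070, -0.0073 and 0.0018). The other Jun probe did not have it, being highest on corn oil replicate 3 (1.38, 1.38 and 1.49). The summed level of the markers was 22.2 to 25.4 in corn oil and 17.7 to 36.3 in treated rats. The part of these markers in the values of Dusp1, Jun and Ier2 was not tested.

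MYC, a basic helix-loop-helix factor that binds DNA with MAX, is a growth response gene. Myc was at -0.69, -0.68 and -0.87 on the corn oil arrays and at -0.81, -0.66 and -0.04 on treated replicates 1, 2 and 3. Treated replicate 3 stood apart above the other arrays, which overlapped. The log2 change was 0.25 ± 0.21 (1.19-fold, 95% interval 0.837 to 1.68; limma adjusted p = 0.513), and it was 0.01 without treated replicate 3.

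The spread between treated rats exceeded that between corn oil rats for 6 of the 9 genes, against 67.8% of all genes. The SDs for Myc were 0.41 in treated and 0.11 in corn oil rats. Treated replicate 1 was the lowest treated array for Jun, Jund, Egr1, Ier2, Ier3, Dusp1 and Myc and the highest for Fos and Junb. Without treated replicate 1 the arrays of Jun, Jund, Ier2, Dusp1 and Myc were higher without overlap, 5 of 9, where 31.9% of all genes were in that comparison, and 0 of 9 passed. In these 5 genes it was the lowest treated array, and leaving out the lowest treated array can only favour that outcome. The count is therefore not read as a result about the members. Ier2, without overlap on the 6 arrays, must stay so whichever array is left out. With any other array left out, Junb was higher without overlap only without corn oil replicate 1. Egr1 was lower without overlap only without treated replicate 3, and no further member lacked overlap. The share of all genes in these other comparisons is not given here.

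**Figure D3:**
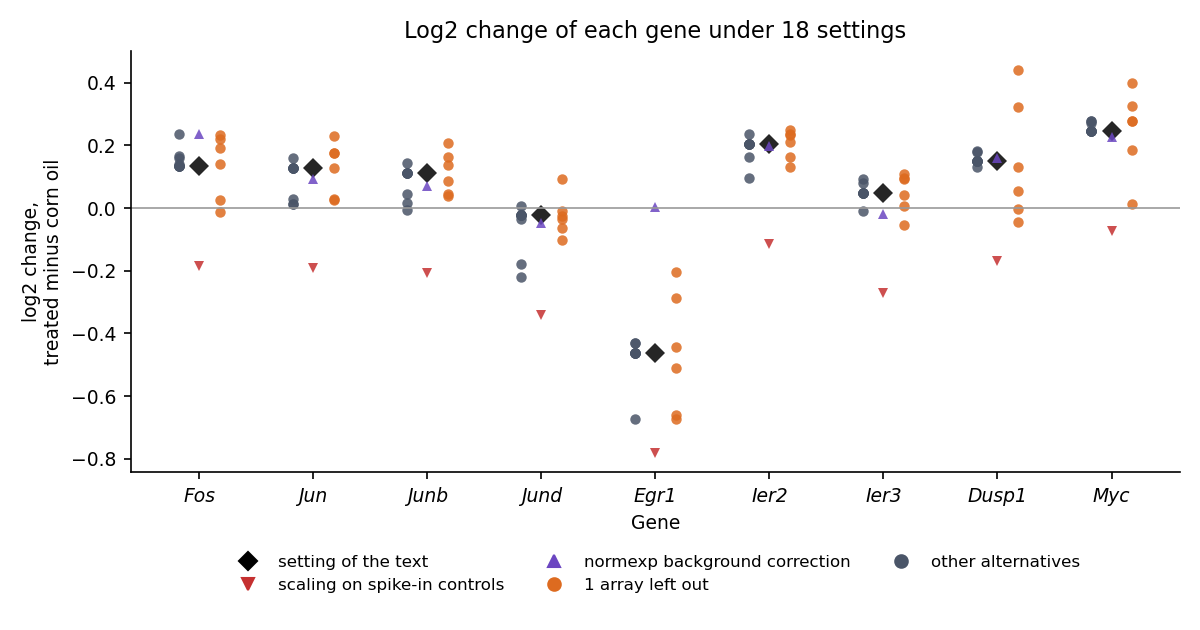
Log2 change (treated minus corn oil, vertical axis) of each gene under the setting of the text and 17 alternatives, drawn as separate symbols for spike-in scaling, normexp correction, single arrays left out and other alternatives. All 9 genes lie below 0 with spike-in scaling, which moves every gene by the same amount (median of all genes -0.28). The values of Dusp1 spread from -0.17 to 0.44.

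The pattern of Fos over the 6 arrays, each gene centred on its mean, was most like those of Kcnt1, a potassium channel (root mean square difference 0.037), Bmp4, a secreted growth factor (0.0501), Emx2, a homeobox factor (0.0502), and Galnt18 (0.0628). The median of this difference from Fos over all genes was 0.269. Nearest to Egr1 were Sp7 (0.125), Dtx3l (0.143), Fads6 (0.148) and the clock and immediate early gene Per1 (0.166), against a median of 0.462. Nearest to Myc were Mn1 (0.0600), Spmip11 (0.0828), Cidea (0.0841) and Ccl9 (0.0864), against a median of 0.309. No other member was among these 12 genes. These are descriptions over 6 arrays, and none of the 12 passed the test between groups.

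Other genes of the same pathways were taken from lists and none of those tested had an adjusted p under 0.05 in limma. Of the other immediate early genes, 32 of 36 were tested, with a median log2 change of 0.11. Of these, 4 were higher and 4 lower by unadjusted p (under 0.05), against 14.3% and 7.29% of all genes. The 4 lower include Egr3, whose probe was well above background on only 3 of the 6 arrays, those of corn oil. It passed the filter only through the group where it was higher, so Egr3 is not read as lower. The log2 changes of these 32 genes ran from -0.83 to 0.78. As they are more than the 9 members, this range is not set against that of the members.

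Trib1, a pseudokinase that promotes degradation of regulatory proteins, had the lowest p of this list. It was at -0.59, -0.23 and -0.53 on the corn oil arrays and at -1.31, -1.10 and -1.45 on the treated arrays. The groups were well apart, yet Trib1 did not pass (log2 change -0.83 ± 0.14; limma adjusted p = 0.0948; 0.051 to 0.3267 over 17 alternatives).

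Atf3, a stress-induced factor that pairs with JUN proteins, was at -1.42, -0.89 and -1.31 on the corn oil arrays and at -0.46, -0.60 and -0.22 on the treated arrays. The 3 treated arrays lay above the corn oil arrays. Its log2 change was 0.78 ± 0.17 (limma adjusted p = 0.123). Rhob, an immediate early gene for a small GTPase, was at 0.43, 0.63 and 0.56 on the corn oil arrays and at -0.12, 0.23 and 0.03 on the treated arrays, again without overlap. Its log2 change was -0.49 ± 0.12 (limma adjusted p = 0.130; -0.29 from its other probe). The signs of Trib1, Atf3 and Rhob were the same under all 17 alternatives, spike-in scaling included.

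Upstream kinases and transcription factors of the pathway had a median of -0.03 over 20 tested genes, with 3 higher and 0 lower by unadjusted p, near the 14.3% of all genes that were higher (7.29% were lower). The kinases with the lowest p were Mapk9, which encodes JNK2 (0.30 ± 0.08), Rps6ka1, which encodes RSK1 (0.38 ± 0.13), and Map2k2, which encodes MEK2 (0.32 ± 0.12). Spike-in scaling brought these to -0.01, 0.06 and 0.0021, and quantile normalization brought Map2k2 to 0.06. The other probes of Mapk9 had -0.13 and 0.13. MAP kinase feedback inhibitors had a median of 0.06 over 11 genes and of 0.10 over those well above background on all 6 arrays, with 1 higher by unadjusted p. Spred2, an inhibitor of RAS to RAF signalling, had a p under 0.05 too but is not counted as lower, since its probe was not well above background on any treated array and its sign turned after normexp correction (0.14). The phosphatase Dusp8 had 0.34 ± 0.12 (-0.05 from its other probe, 0.02 with spike-in scaling). The phosphatase Dusp2 had -0.48 ± 0.24 (-0.15 after normexp correction, -0.28 without treated replicate 1, -0.80 with spike-in scaling).

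AP-1 partners had a median of 0.03 over 10 genes, with 2 higher and 0 lower by unadjusted p, against 14.3% and 7.29% of all genes. They included Batf (0.43 ± 0.12; 0.11 with spike-in scaling) and Atf4, the factor of the amino acid response (0.44 ± 0.17; 0.12 with spike-in scaling, 0.23 after quantile normalization). Atf2 had -0.23 ± 0.10 (-0.55 with spike-in scaling, -0.10 after normexp correction), and its other probes had -0.28 and 0.06. Genes known as AP-1 targets had a median of 0.01 over 9 tested genes, with 1 higher and 0 lower, against the same shares. In this list Lgals3, a galectin, had 0.42 ± 0.16 (0.10 with spike-in scaling, 0.25 without corn oil replicate 1). The urokinase gene Plau had -0.38 ± 0.17 (-0.70 with spike-in scaling, -0.18 without treated replicate 1), and the integrin subunit Itgb1 had -0.16 ± 0.10 (-0.47 with spike-in scaling).

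MYC partners and antagonists had the highest list median, 0.23 over 9 genes, with 1 higher and 0 lower by unadjusted p (14.3% and 7.29% of all genes), and the median was -0.09 with spike-in scaling. The 3 with the lowest p were Mlx (0.28 ± 0.09; -0.04 with spike-in scaling) and the MYC antagonists Mxi1 (0.39 ± 0.19; 0.07) and Mxd3 (0.27 ± 0.19; -0.04). The 24 tested MYC target genes had a median of 0.02, with 3 higher and 1 lower, not above those shares. Cad, which starts pyrimidine synthesis, was at -0.16, -0.12 and -0.13 on the corn oil arrays and at -0.43, -0.76 and -0.57 on the treated arrays, without overlap. Its log2 change was -0.45 ± 0.10 (limma adjusted p = 0.128), and its other probe gave -0.45. The nucleolar protein gene Nop56 had 0.33 ± 0.08 (0.0058 with spike-in scaling), and Srm, spermidine synthase, had 0.45 ± 0.14 (0.13).

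**Figure D4:**
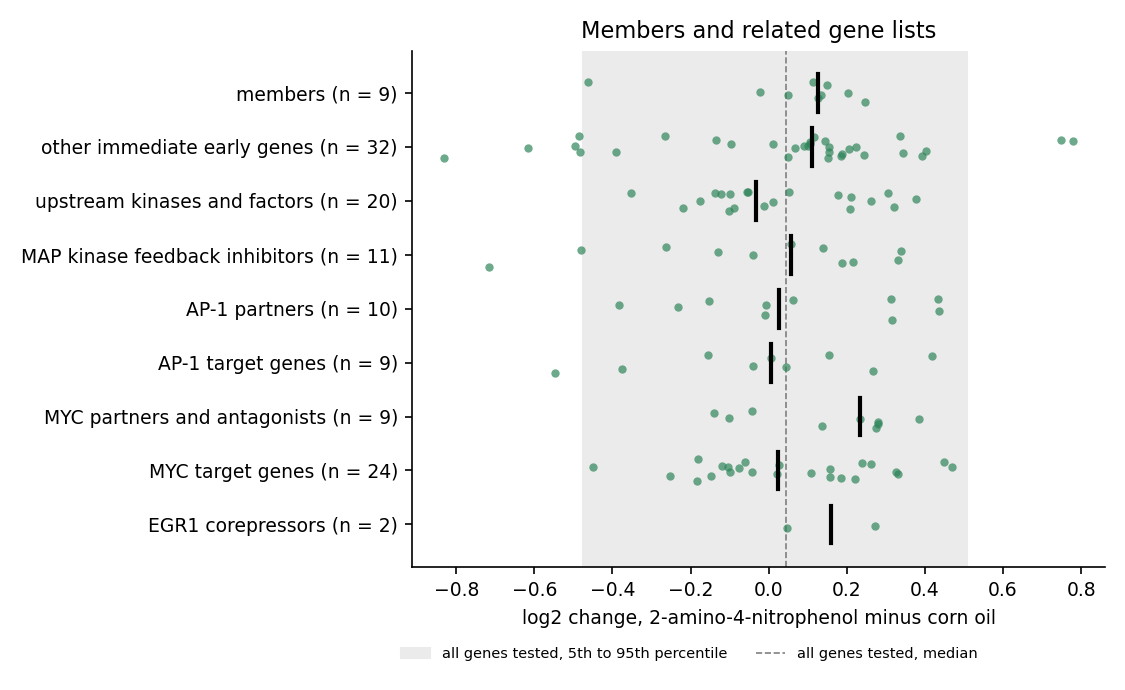
Log2 change (treated minus corn oil, horizontal axis) of every tested gene of the members and of 8 related lists; points are genes, black bars list medians, the dashed line the median of all genes tested (0.04) and the grey band their 5th to 95th percentile. List medians lie between -0.03 and 0.23. All were below 0 with spike-in scaling, which moves every gene by the same amount and gave a median of -0.28 over all genes.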

How the data were processed

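Renal cortex RNA of 3 corn oil and 3 treated rats was hybridised to 1-colour arrays. Per the file headers, Agilent Feature Extraction 10.7.1.1 (10.7 in the submitters' processing notes) gave the deposited linear intensity of each spot after subtracting and detrending background. In the authors' value table, used as an alternative, values are a ratio to the array 75th percentile (column medians 0.103 to 0.107). Its columns fit scanner files of the right group but with other replicate numbers; the text numbers replicates by scanner file.

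Log2 processed intensity minus the array 75th percentile was computed. Of 61657 non-control probes, 64 flagged as outliers were left out, and 40894 that were well above background on all 3 arrays of a group were kept. RefSeq accessions named 27460 probes (44.5%) for 15284 genes (GRCr8 table). A gene was its brightest kept probe. The comparison used limma 3.58.1 (lmFit, eBayes; R 4.3.3) with no block, and Benjamini-Hochberg adjustment ran over 11748 genes (threshold 0.05); prior degrees of freedom were 2.21 beside 4 residual. The fit was tested on simulated data. The number of arrays limits the precision.

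Members and lists were chosen with earlier results of these data known. The rule for named genes takes all members, the 3 lowest p of each related list where none passed, and the 4 genes nearest in pattern to Fos, Egr1 and Myc. Alternatives were normexp correction (offset 50, on median signals), quantile normalization, scaling on the median or on 7 spike-in probes, the authors' table, other filters, a replicate or slide block, trended and robust eBayes, averaging of kept probes, and leaving out each array.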

Additional observations from a re-analysis of the deposited data

How the results depend on the processing

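In limma 0 of the 9 members passed under each of the 17 alternatives. The members' median log2 change (0.13) was 0.0134 after quantile normalization, 0.0493 with the mean over kept probes and -0.19 with spike-in scaling; it ran from 0.0429 (without treated replicate 2) to 0.18 with single arrays left out. The count over all genes (3) was 56 after normexp correction, 9 with spike-in scaling, 69 with trend and robust settings, and 0 with no filter on dim probes, with the slide block and with the mean over kept probes (3496, 1764 and 2443 genes at an unadjusted p under 0.05). With single arrays left out it ran from 0 (each corn oil array; 1546 to 1761 genes at an unadjusted p under 0.05) to 74 (treated replicate 2), with 14 without treated replicate 1. For these alternatives the cause was not tested. With the replicate block the count was 0 (2121 at an unadjusted p under 0.05) and the members' median 0.13, and Egr1 had an unadjusted p of 0.0415 (limma adjusted p = 0.268). Deviations of same-numbered arrays correlated at 0.00648, -0.0502 and -0.032 across genes, and those of differently numbered arrays at -0.0253 to 0.0509. No pairing of animals by replicate number was seen in these values. Fos and Egr1 are dim, and normexp correction moved both; intervals of Egr1, Dusp1 and Myc reach past a 1.5-fold change.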
